A study of Mus musculus with 6 samples.

Results

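The genes described here are 37 markers of cells that are not mammary epithelium, namely 17 leukocyte, 9 endothelial, 4 pericyte, 4 fibroblast and 3 adipocyte genes. They were chosen by name, and 36 of them had at least 1 probe among the 20660 genes that could be named on the arrays. Cd68 was the member without a matched probe. RNA came from mammary glands of female C57Bl6J mice and was labelled for one-color arrays (Agilent SurePrint G3 Mouse GE), which report how much labelled cRNA binds to each oligonucleotide probe. The fetal group was 3 biological replicates of E18.5 cells sorted as CD31-CD45-Ter119-EpCAM++CD49f+, and the adult basal group was 3 biological replicates from mice of 8 to 12 wk with the gate CD31-CD45-Ter119-BP-1-EpCAM+CD49f+. The antibody to BP-1, which the study used against stromal cells, was added to the adult samples only, and the adult glands were digested overnight whereas the fetal glands were digested for a shorter time. Each sorted sample was a bulk RNA, so that a lower signal from fewer cells of a type and one from less RNA per cell cannot be told apart. The comparison addresses how much signal each sample gave for markers of cells outside the sort gates, and whether that differed between the populations. Whether the transcripts came from such cells or from the sorted epithelial cells themselves was not tested.

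A mammary gland holds its epithelial ducts in a stroma of fibroblasts, adipocytes, vessels and leukocytes. Endothelial cells line the vessels and carry CD31, pericytes wrap small vessels from outside, and macrophages lie close to the ducts and within the epithelium. Sorting for EpCAM and CD49f is meant to keep epithelial cells, while antibodies to CD45, Ter119 and CD31 mark leukocytes, erythroid cells and endothelial cells for removal. A lineage marker is a gene whose transcript is abundant in 1 of these cell types, although several of the genes below are known to be used by epithelial cells as well.

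Values are log2 signal after quantile normalization of the 6 arrays, 1 probe per gene (that with the highest mean), and differences are log2 fold changes of fetal over adult basal cells, so that a negative value means a higher adult signal. Calls required a difference of 2-fold or more and, after Holm's adjustment over all tested probes, a p of 0.05 or less from limma, and the less strict Benjamini-Hochberg adjustment at the same limits is given beside it. An array had between 76.4% and 83.3% of all probes well above background and no saturated spot. Replicates varied with a median SD of 0.12 (log2, n = 3) in fetal and 0.18 (log2, n = 3) in adult basal cells. Where only some arrays of a population were well above background, their number is given, and the fitted log2 fold change then includes values near background. Intensities of different probes depend on the probes and are not compared as amounts of RNA.

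Most of the differing markers were higher in adult basal cells. The 3 adult arrays all lay above the 3 fetal arrays for 24 of the 36 markers with a probe, among all genes this held for 29.4%, and the reverse order was found for 1 marker, against 28% of all genes. Both called markers were higher in adult basal cells, the class II gene H2-Ab1 and the platelet-derived growth factor receptor gene Pdgfrb, and no marker was called higher in fetal cells. Over all genes tested, 5.2% were called higher in adult basal and 6.02% higher in fetal cells. With Benjamini-Hochberg adjustment, 16 of the 33 tested markers were higher in adult basal cells and 1 in fetal cells, against 13.9% and 15.8% of all genes. Of these 33, 22 passed the low-signal filter in both populations, with 7 of them higher in adult basal and 1 higher in fetal cells by the second adjustment, against 12.2% and 13.4% of all genes that passed in both. Another 10 passed through the adult signal alone and 1, Adipoq, through the fetal signal alone, and such genes had to differ in order to be tested. The 3 untested markers, Tek, Tie1 and Dpt, lay below the filter in both populations and were higher on every adult array. Over the 22 markers that passed in both populations the median log2 fold change was -0.49, and over all genes that did so it was -0.05. The Holm count was 1 with any 1 fetal replicate left out (Pdgfrb), 3 without adult basal replicate 2 and 4 without adult basal replicate 3. All 36 markers were well above background on at least 1 array, and 30 of them (83.3%) on all 6, against 78.9% of all genes.

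**Figure D1:**
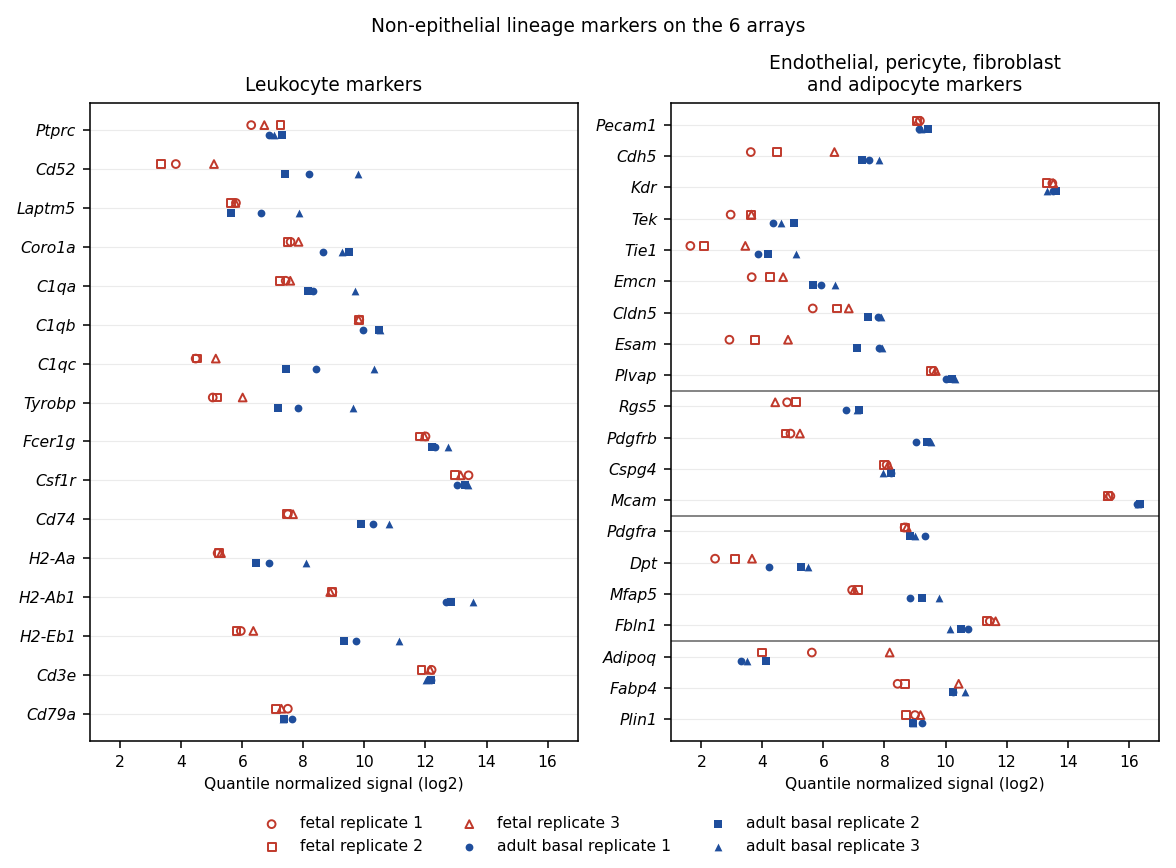
Quantile normalized log2 signal of the 36 markers on each array, with open red symbols for the 3 fetal and filled blue symbols for the 3 adult basal replicates, and lines between the endothelial, pericyte, fibroblast and adipocyte genes on the right. The 3 adult symbols lie to the right of all 3 fetal symbols for 24 of the 36 markers, and for Fbln1 alone the 3 fetal symbols lie to the right of all adult symbols.

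**Figure D2:**
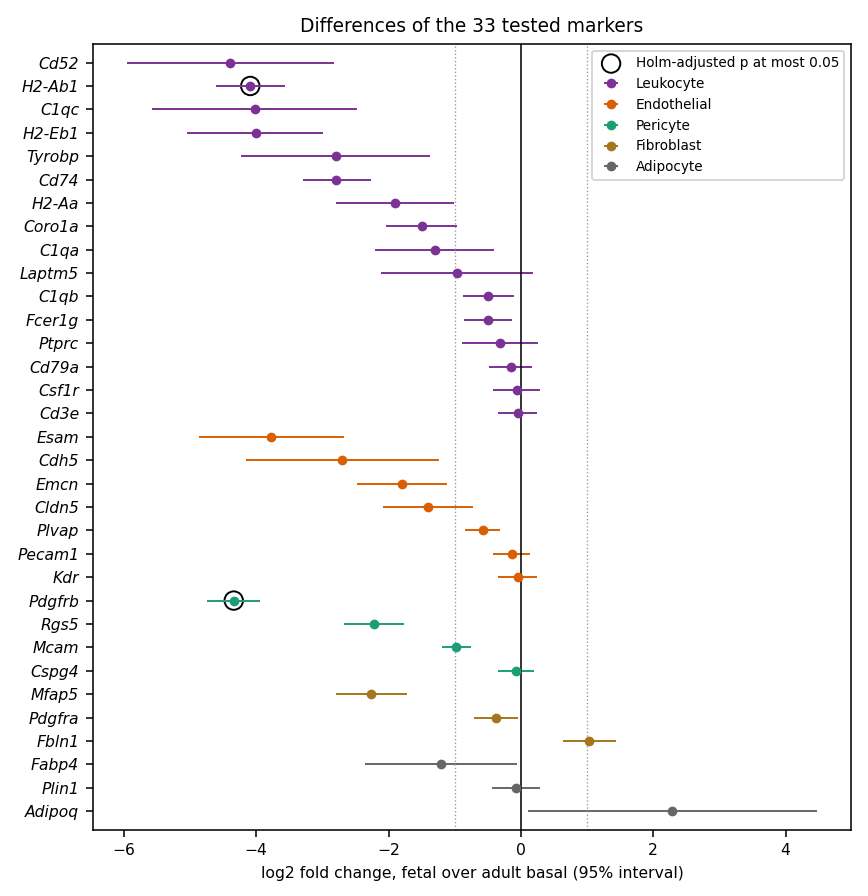
Log2 fold change (fetal over adult basal) of the 33 tested markers by lineage, with 95% intervals from limma's fit and dotted lines at a difference of 2-fold. The 2 ringed genes, H2-Ab1 and Pdgfrb, passed the Holm threshold, and C1qc, Cd52, Tyrobp and Adipoq have wide intervals.

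The transcripts of the antigens used for exclusion did not differ detectably. Ptprc, which encodes CD45, was at 6.29, 7.25 and 6.72 on fetal arrays 1 to 3 and at 6.86, 7.29 and 7.05 on adult basal arrays 1 to 3. The populations overlapped, with a log2 fold change of -0.31 (95% interval -0.89 to 0.26, limma). Pecam1, which encodes CD31, was at 9.16, 9.07 and 9.09 in fetal and 9.12, 9.44 and 9.18 in adult basal cells. Its log2 fold change was -0.14 (95% interval -0.42 to 0.13), so that a 2-fold difference lies outside the interval of either gene. Both were well above background on all 6 arrays. No array had Enpep, the BP-1 gene, well above background, and Itga6, which encodes CD49f of the positive gates, was at 15.82, 15.69 and 15.71 in fetal and 15.97, 15.53 and 15.68 in adult basal cells.

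The leukocyte markers that differed were higher in adult basal cells. All 16 with a probe were tested and 1 was called higher in adult basal cells (5.2% of all genes). For 11 the populations did not overlap, with the adult arrays higher (29.4% of all genes). By the Benjamini-Hochberg adjustment 9 were higher in adult basal cells (13.9% of all genes) and none in fetal cells (15.8% of all genes). Of these 9, C1qc, Cd52, H2-Aa and Tyrobp passed the low-signal filter through the adult signal alone. The median log2 fold change of the 11 that passed in both populations was -0.49. Antigen presentation by MHC class II is a system used above all by macrophages, dendritic cells and B cells. Its 4 genes here were among the 11 markers that did not overlap between populations. H2-Aa and H2-Ab1 encode the 2 chains of the I-A molecule, H2-Eb1 a chain of the I-E molecule, and Cd74 the invariant chain that guards the binding groove until a peptide is loaded.

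Class II genes are switched on together through a conserved promoter with an inverted CCAAT element, the Y box. Since these genes were all higher on every adult array, the promoters of the 2 class II members with an entry in the RefSeq table (GRCm38.p6) are shown, from 250 bases before to 50 bases after the gene start, 5′ to 3′ on the gene's strand. Capitals mark the letters CTGATTGG, searched on both strands (CCAATCAG on the other) and found by a script, with the first capital at position -51 from the start of H2-Aa and at position -62 from that of H2-Eb1.
H2-Aa, chr17:34287774-34288073, minus strand: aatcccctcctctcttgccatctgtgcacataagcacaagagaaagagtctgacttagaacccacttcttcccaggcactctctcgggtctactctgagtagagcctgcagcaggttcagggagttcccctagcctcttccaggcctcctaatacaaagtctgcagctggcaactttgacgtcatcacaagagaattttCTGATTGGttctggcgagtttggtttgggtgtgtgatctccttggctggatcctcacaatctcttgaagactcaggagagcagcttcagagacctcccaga
H2-Eb1, chr17:34305617-34305916, plus strand: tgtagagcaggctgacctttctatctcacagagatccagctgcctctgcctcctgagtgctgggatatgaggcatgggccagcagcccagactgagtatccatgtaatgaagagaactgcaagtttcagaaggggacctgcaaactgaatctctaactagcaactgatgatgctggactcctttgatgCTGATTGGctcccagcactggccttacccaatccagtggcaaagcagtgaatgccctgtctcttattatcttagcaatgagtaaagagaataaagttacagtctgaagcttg
The same 8 letters stood in 1346 of 32851 promoters of this length in the table (4.1%). Of the 24 markers with a promoter there, 3 held them, the third being the pericyte gene Rgs5. A match is a description of the letters and not evidence of binding.

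H2-Ab1 was at 8.95, 8.93 and 8.88 in fetal cells and 12.67, 12.83 and 13.54 in adult basal cells. The SD was 0.04 (n = 3) in fetal and 0.46 (n = 3) in adult basal cells, and the populations were far apart. The log2 fold change was -4.09 (SE 0.22, Holm-adjusted p = 0.0047), or 17-fold, and the second probe gave -4.07 (SE 0.21, Holm-adjusted p = 0.0031). Within the slides it was -4.15 and -3.92. Its size was between -4.12 and -4.06 without each fetal replicate in turn, but the Holm-adjusted p was then 0.096, 0.079 and 0.075 and the call was lost, as it was without the low-signal filter (adjusted p = 0.052).

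Cd74 was at 7.49, 7.47 and 7.66 in fetal and 10.29, 9.90 and 10.80 in adult basal cells. Its difference of -2.79 on the log2 scale (SE 0.22) missed the Holm threshold narrowly (adjusted p = 0.062), and the gene was called without adult basal replicate 2 (adjusted p = 0.016) or replicate 3 (adjusted p = 0.043). It was also called with the 75th percentile normalization (0.030), the normexp correction (0.014), a variance trend (0.0091) or an offset of 16 (0.018), again by Holm-adjusted p. H2-Eb1 was at 5.95, 5.81 and 6.36 against 9.71, 9.33 and 11.12, a log2 fold change of -4.01 (SE 0.43, Holm-adjusted p = 0.50, Benjamini-Hochberg-adjusted p = 1.5e-04). Without adult basal replicate 3 its Holm-adjusted p was 0.037, and with the normexp background correction the difference was -3.17. H2-Aa was at 5.19, 5.24 and 5.30 against 6.88, 6.46 and 8.09, with a log2 fold change of -1.90 (SE 0.38, Benjamini-Hochberg-adjusted p = 0.0034). In each of these 3 genes adult basal replicate 3 had the highest value and replicate 2 the lowest of the adult arrays, and even the lowest lay above every fetal array.

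Genes of macrophages and of their complement component C1q gave mixed sizes. C1qc, a chain of C1q, was at 4.47, 4.51 and 5.13 in fetal and 8.41, 7.43 and 10.32 in adult basal cells. C1qb, another chain of the same protein, was at 9.83, 9.82 and 9.81 against 9.94, 10.48 and 10.52. The log2 fold changes were -4.02 (SE 0.66) for C1qc, -1.30 (SE 0.38) for C1qa and -0.49 (SE 0.17) for C1qb. Genes for 3 chains of 1 protein complex thus differed by 16.2-fold, 2.46-fold and 1.41-fold on their probes, all in the same direction, although the value for C1qc was -3.21 without adult basal replicate 3, -4.70 without replicate 2 and -2.5 with the normexp background correction. Tyrobp, which encodes the signalling adaptor DAP12 of myeloid and natural killer cells, was at 5.03, 5.17 and 6.01 against 7.82, 7.16 and 9.64, a log2 fold change of -2.80 (SE 0.61, Benjamini-Hochberg-adjusted p = 0.0052), which was -2.08 without adult basal replicate 3 and -1.81 with normexp. For C1qa, C1qc and Tyrobp adult basal replicate 3 was again the highest array. C1qa no longer passed the Benjamini-Hochberg limits without fetal replicate 1, fetal replicate 2 or adult basal replicate 3.

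The brightest leukocyte probe was that of Csf1r, the receptor for the macrophage growth factor CSF1, and it did not separate the populations. It was at 13.41, 12.97 and 13.15 in fetal and 13.04, 13.29 and 13.38 in adult basal cells, a log2 fold change of -0.06 (95% interval -0.42 to 0.29), whose sign turned without fetal replicate 2 (0.04) or adult basal replicate 3 (0.01). The other 2 Csf1r probes gave -0.66 (SE 0.16, Benjamini-Hochberg-adjusted p = 0.0098) and -0.25 (SE 0.15). Only the first of these 2 separated the populations, at 8.48, 8.90 and 9.09 against 9.45, 9.54 and 9.45. Fcer1g, an adaptor chain of Fc receptors, was at 12.00, 11.80 and 11.96 against 12.30, 12.20 and 12.73 (log2 fold change -0.49, SE 0.16).

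Pan-leukocyte genes other than Ptprc gave differences of unequal size. Cd52, which encodes a small surface glycoprotein of lymphocytes and macrophages, was at 3.82, 3.33 and 5.07 in fetal and 8.19, 7.39 and 9.80 in adult basal cells. Its log2 fold change was -4.39 (SE 0.66, Benjamini-Hochberg-adjusted p = 8.4e-04), with 2 of the 3 fetal arrays well above background. It was -2.44 with the normexp background correction, -3.45 with an offset of 16 and -3.70 without adult basal replicate 3. Coro1a, an actin-binding protein of leukocytes, was at 7.58, 7.48 and 7.84 against 8.63, 9.49 and 9.28 (log2 fold change -1.5, SE 0.23), and here adult basal replicate 2 was the highest. For Laptm5, a lysosomal protein of blood cells, adult basal replicate 2 equalled the lowest fetal array at 5.63 while replicates 1 and 3 were at 6.62 and 7.86. Its log2 fold change of -0.97 (SE 0.49) was not past the limits, although that without adult basal replicate 2 (-1.52) passed the Benjamini-Hochberg ones. Without adult basal replicate 3 it was -0.40, and within the slides it was -1.45 and 0.07. Its second probe was well above background on no fetal and 2 adult arrays, a difference of at least 2.03-fold that was 1.15-fold without adult basal replicate 3 and 3.46-fold without replicate 2.

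The T and B cell receptor genes did not differ detectably. Cd3e of the T cell receptor complex was at 12.20, 11.87 and 12.15 in fetal and 12.19, 12.18 and 12.01 in adult basal cells, and the difference was -0.05 (95% interval -0.35 to 0.24). Cd79a of the B cell receptor was at 7.49, 7.11 and 7.28 against 7.62, 7.37 and 7.34, with a log2 fold change of -0.15 (95% interval -0.48 to 0.17). Of 7 further lymphoid genes 3 were tested, and none was called or passed the Benjamini-Hochberg limits. Nkg7 was the brightest of them, at a log2 fold change of -0.04, and Cd3g, named after its values were seen, was well above background on no array.

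A further list of 12 myeloid and mast cell genes was examined beside them. Ctss, which encodes the protease cathepsin S that trims the invariant chain in antigen-presenting cells, was at 4.72, 4.24 and 5.62 in fetal and 10.19, 9.69 and 12.28 in adult basal cells. Its log2 fold change was -5.86 (SE 0.67, Holm-adjusted p = 0.71, Benjamini-Hochberg-adjusted p = 2.0e-04). Of the 10 tested genes of this list, none was called. By the second adjustment, Ctss and the macrophage lysozyme gene Lyz2 (-1.76, SE 0.54) were higher in adult basal cells (13.9% of all genes). By the same adjustment the mast cell protease gene Cpa3 was higher in fetal cells (15.8% of all genes). Ctss and Lyz2 passed the low-signal filter through the adult signal alone and Cpa3 through the fetal signal alone, so that each had to differ in order to be tested. The brightest gene, Itgam, which encodes CD11b, was at 14.17, 14.02 and 13.57 against 13.38, 14.17 and 13.48 and did not separate the populations. Adgre1, which encodes the macrophage antigen F4/80, depended on the probe. The brighter one gave -0.42 (SE 0.14). The second was well above background on no fetal array, was at 6.63, 6.12 and 8.71 in adult basal cells, and differed by at least 10.3-fold, or 6.03-fold without adult basal replicate 3. Lyz2 and Cpa3 are outside the rule for named genes and were chosen after their values were seen.

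Among the endothelial markers, Pecam1 and Kdr did not separate the populations, and the other 7 were higher on every adult array (29.4% of all genes). Of 9 genes, 7 were tested and none was called. By the Benjamini-Hochberg adjustment 4 were higher in adult basal cells (13.9% of all genes) and none in fetal cells (15.8% of all genes). Of these 4, Cdh5, Emcn and Esam passed the filter through the adult signal alone, and Cldn5 in both populations. The median log2 fold change of the 4 endothelial markers that passed in both populations was -0.36. Kdr, which encodes VEGF receptor 2 and was the brightest, was at 13.50, 13.31 and 13.53 in fetal and 13.53, 13.63 and 13.31 in adult basal cells, a log2 fold change of -0.04 (95% interval -0.34 to 0.25). The sign turned without fetal replicate 2 or adult basal replicate 2 (0.03 in each). The second Kdr probe was at 5.67, 6.11 and 6.83 against 6.89, 6.28 and 7.42, with a log2 fold change of -0.66 (SE 0.36), and it also overlapped.

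Genes of endothelial junctions were among those that separated the populations. Cdh5, the cadherin of endothelial adherens junctions, was at 3.62, 4.49 and 6.36 in fetal and 7.49, 7.27 and 7.81 in adult basal cells. The fetal arrays were spread over more than the adult ones, with replicate 3 highest, and the log2 fold change was -2.70 (SE 0.62, Benjamini-Hochberg-adjusted p = 0.0070). It was -3.44 without fetal replicate 3, -2.10 without fetal replicate 1 and -2.07 with an offset of 16. Esam, an adhesion molecule of endothelial junctions, was at 2.92, 3.77 and 4.84 against 7.81, 7.09 and 7.92 (log2 fold change -3.77, SE 0.47, Benjamini-Hochberg-adjusted p = 3.0e-04). It was well above background on 1 of the 3 fetal arrays, and the difference was -2.75 with an offset of 16. The tight junction gene Cldn5 (-1.40, SE 0.29) and Emcn, which encodes the sialoprotein endomucin of veins and capillaries (-1.79, SE 0.29), passed the same limits, Emcn without a test when adult basal replicate 3 was left out, as it then failed the low-signal filter. Plvap, which encodes the diaphragm protein of fenestrated capillaries, was higher on every adult array, but by less than 2-fold (-0.58, SE 0.11).

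The 2 angiopoietin-receptor family genes were near background. Tek, the receptor itself, was at 2.96, 3.63 and 3.64 in fetal cells, where no array was well above background, and at 4.34, 5.05 and 4.62 in adult basal cells, where all 3 were. The difference was at least 1.85-fold and was not tested. Such a bound takes, for each array of the dimmer population, the higher of the probe's own signal and the lowest signal of any probe well above background. Tie1 was at least 1.52-fold higher in adult basal cells, with 2 adult arrays well above background.

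Of 7 further endothelial genes, 5 were tested and none was called. Robo4 and Flt1 were higher in adult basal cells by the Benjamini-Hochberg adjustment (13.9% of all genes). Robo4, a guidance receptor of endothelial cells, was at 6.15, 6.56 and 7.35 in fetal and 8.10, 7.95 and 8.70 in adult basal cells, a log2 fold change of -1.57 (SE 0.33). Egfl7, the brightest of this list, was higher on every fetal array, by 0.99 (SE 0.15) on the log2 scale, which was just under the 2-fold limit. The 4 genes of lymphatic endothelium with a probe were too dim to be tested. Their brightest, Mmrn1, was at 5.64, 5.72 and 5.50 against 5.44, 5.78 and 5.38, so that the populations overlapped.

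Among the 4 pericyte markers, Pdgfrb had the smallest p of the 33 tested markers. It encodes the receptor that recruits pericytes to vessels, and fibroblasts also use it. Its signal was at 4.92, 4.76 and 5.23 in fetal and 9.04, 9.39 and 9.51 in adult basal cells. This is a difference of -4.34 on the log2 scale (SE 0.17, Holm-adjusted p = 5.6e-04), or 20.3-fold, and -4.35 and -4.40 within the slides. The call held under all 19 alternatives, although Pdgfrb, like Rgs5, passed the low-signal filter through the adult signal alone. Its size was -2.93 with the normexp background correction and between -4.47 and -4.23 with arrays left out. Rgs5, a regulator of G protein signalling abundant in pericytes, was at 4.81, 5.10 and 4.42 against 6.75, 7.15 and 7.09 (log2 fold change -2.22, SE 0.20, Holm-adjusted p = 0.14, Benjamini-Hochberg-adjusted p = 5.3e-05).

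The other 2 pericyte markers behaved otherwise. Mcam, which encodes the adhesion molecule CD146 of vessels and smooth muscle, was the brightest marker probe, at 15.40, 15.31 and 15.31 in fetal and 16.26, 16.37 and 16.32 in adult basal cells. The difference of -0.98 (SE 0.09, Benjamini-Hochberg-adjusted p = 8.1e-05) was many times the replicate SD but lay under the 2-fold limit, which it reached (-1) without fetal replicate 1 or adult basal replicate 1. The second Mcam probe, at 9.59, 9.42 and 9.41 against 9.27, 9.35 and 9.26, gave 0.18 (SE 0.10), the opposite sign. Cspg4, the proteoglycan NG2, was at 8.07, 7.98 and 8.13 against 8.21, 8.21 and 7.96, a log2 fold change of -0.07 (95% interval -0.34 to 0.20). By counts, 1 of the 4 was called (5.2% of all genes) and 2 passed the Benjamini-Hochberg limits (13.9% of all genes). These 2, Pdgfrb and Rgs5, were admitted by the filter through the adult signal alone. The signals of 3 did not overlap, with the adult arrays higher (29.4% of all genes). The median of Mcam and Cspg4, which passed in both populations, was -0.52. Of 4 further pericyte genes 3 were tested, and 1, the Notch receptor gene Notch3, was called higher in fetal cells. It was at 12.88, 12.74 and 12.66 in fetal and 7.70, 8.31 and 8.15 in adult basal cells (log2 fold change 4.70, SE 0.17, Holm-adjusted p = 2.9e-04), the direction opposite to Pdgfrb. Higd1b, the brightest of these genes, did not separate the populations (-0.29, SE 0.15).

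Fibroblast markers went both ways. Mfap5, a glycoprotein of elastic microfibrils, was at 6.94, 7.13 and 7.01 in fetal and 8.84, 9.23 and 9.79 in adult basal cells, a log2 fold change of -2.26 (SE 0.23, Holm-adjusted p = 0.32, Benjamini-Hochberg-adjusted p = 1.0e-04). Fbln1, a secreted fibulin and the brightest of the 4, was at 11.45, 11.37 and 11.64 against 10.74, 10.50 and 10.14. It was the 1 marker higher on every fetal array, with a log2 fold change of 1.03 (SE 0.17, Benjamini-Hochberg-adjusted p = 0.0013) and 0.84 (SE 0.18) on its second probe. It fell under the 2-fold limit without fetal replicate 3 (0.94) or adult basal replicate 3 (0.87). No tested marker then passed the Benjamini-Hochberg limits in favour of fetal cells. Pdgfra, the receptor that marks much of the mammary stroma, was at 8.66, 8.66 and 8.73 against 9.33, 8.83 and 9.01 (-0.37, SE 0.14). Dpt, which encodes dermatopontin of the collagen matrix, was well above background on no fetal array, at 2.45, 3.09 and 3.66, and on all 3 adult arrays, at 4.22, 5.26 and 5.51, a difference of at least 2.32-fold that was not tested. The median of the 3 tested fibroblast markers was -0.37.

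All 8 further fibroblast genes were tested and well above background on all arrays. Of these, 1 was called higher in adult basal cells, 4 passed the Benjamini-Hochberg limits in that direction (13.9% of all genes) and none in the other, and 7 did not overlap, with the adult arrays higher (29.4% of all genes). Twist2, 1 of the 4, and Fap passed the low-signal filter through the adult signal alone, and the median of the other 6 was -0.98. Dcn, the collagen-binding proteoglycan decorin, was at 9.50, 9.54 and 9.78 in fetal and 13.04, 13.39 and 13.72 in adult basal cells (log2 fold change -3.78, SE 0.18, Holm-adjusted p = 0.0023). Col1a2, a chain of type I collagen and the brightest of the list, gave -0.90 (SE 0.25), whereas Col1a1, the other chain, gave -0.01 (SE 0.25). Thy1 and Twist2 gave -1.62 (SE 0.23) and -2.20 (SE 0.32). Twist2 and Fap were named after their values were seen. Basal mammary cells are themselves known to make matrix proteins, and which cells the signal came from was not tested.

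The 3 adipocyte markers did not separate the populations, and each varied more among the fetal than among the adult arrays. Fabp4, the adipocyte fatty acid-binding protein, was at 8.43, 8.67 and 10.43 in fetal and 10.26, 10.25 and 10.64 in adult basal cells, so that fetal replicate 3 lay within the adult range (log2 fold change -1.21, SE 0.49). Without that array the log2 fold change was -1.82 and passed the Benjamini-Hochberg limits. Adipoq, the hormone adiponectin, was at 5.62, 3.99 and 8.17 in fetal cells, well above background on 2 arrays, and on none of the adult arrays, a difference of at least 4.21-fold that did not pass the limits (Benjamini-Hochberg-adjusted p = 0.068). The bound was 1.94-fold without fetal replicate 3 and 8.25-fold without fetal replicate 2. Without fetal replicate 3 the gene failed the low-signal filter and was not tested. Without fetal replicate 2 the gene passed the Benjamini-Hochberg limits, and 2 markers then passed them in favour of fetal cells. As Adipoq passed the filter through the fetal signal alone, its direction was fixed before the test. Plin1, the coat protein of lipid droplets, was at 9, 8.71 and 9.18 against 9.24, 8.94 and 8.94 (log2 fold change -0.08, 95% interval -0.44 to 0.29), and its sign turned without fetal replicate 2 (0.05) or adult basal replicate 1 (0.02). Among 6 further adipocyte genes none was called, and none passed the Benjamini-Hochberg limits on its brightest probe. A second Cidec probe passed them (adjusted p = 0.039), at 5.06, 2.35 and 7.23 in fetal and 1.70, 1.69 and 2.05 in adult basal cells. It was well above background on 2 fetal arrays and no adult array, a difference of at least 2.15-fold. Without fetal replicate 3 the bound was lost (0.95). This probe passed the filter through the fetal signal alone and was named after its values were seen. Cfd, the adipocyte protease adipsin, was at 6.44, 4.42 and 9.19 in fetal and 5.57, 6.03 and 7.13 in adult basal cells, so that fetal replicate 3 again stood highest. It was named after its values were seen. Pparg, the brightest of them, was at 8.45, 8.53 and 8.81 against 8.24, 8.27 and 8.34 (0.31, SE 0.12).

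Replicate 3 of each population carried the highest value for more markers than either of the other replicates. Over all 36 markers, fetal replicate 3 was the highest fetal array for 24 (66.7%), against 40.1% of all genes, and adult basal replicate 3 the highest adult array for 22 (61.1%), against 29.2% of all genes. Adult basal replicate 3 was highest for 12 of 16 leukocyte markers, with a median of 0.75 on the log2 scale above the mean of the other adult arrays, and for 6 of 9 endothelial markers (median 0.26). Fetal replicate 3 was highest for 8 of 9 endothelial markers, with a median of 0.73 above the other fetal arrays, for 8 of 16 leukocyte markers (median 0.10) and for all 3 adipocyte markers, with a median of 1.88. Adult basal replicate 3 was highest for only 1 of 3 adipocyte markers (median -0.15). Among the 4 pericyte markers, fetal replicate 3 was highest for 2 (median 0.03) and adult basal replicate 3 for 1 (median 0.07). Among the 4 fibroblast markers these were 3 (median 0.15) and 2 (median 0.35). For 8 epithelial genes (Epcam, Itga6, Cdh1, Krt5, Krt14, Krt8, Krt18 and Trp63) the same medians were -0.20 in fetal and -0.04 in adult basal replicate 3. These counts describe the arrays and were not tested. The populations were also compared without replicate 3 of both, an alternative chosen after seeing the data that does not measure the part of replicate 3. The Benjamini-Hochberg count was then 15 of 31 tested markers higher in adult basal cells (13.1% of all genes) and 0 in fetal cells (14.9% of all genes). These markers included C1qc, Cd52, Cdh5, Esam, H2-Aa, Pdgfrb, Rgs5 and Tyrobp. With all 6 arrays, those 8 passed the low-signal filter through the adult signal alone, and such genes had to differ in order to be tested. At the Holm threshold 2 markers were called higher in adult basal cells. The 4 remaining arrays then did not overlap for 27 of the 36 markers, with the adult arrays higher, against 37.1% of all genes in the same arrays.

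**Figure D3:**
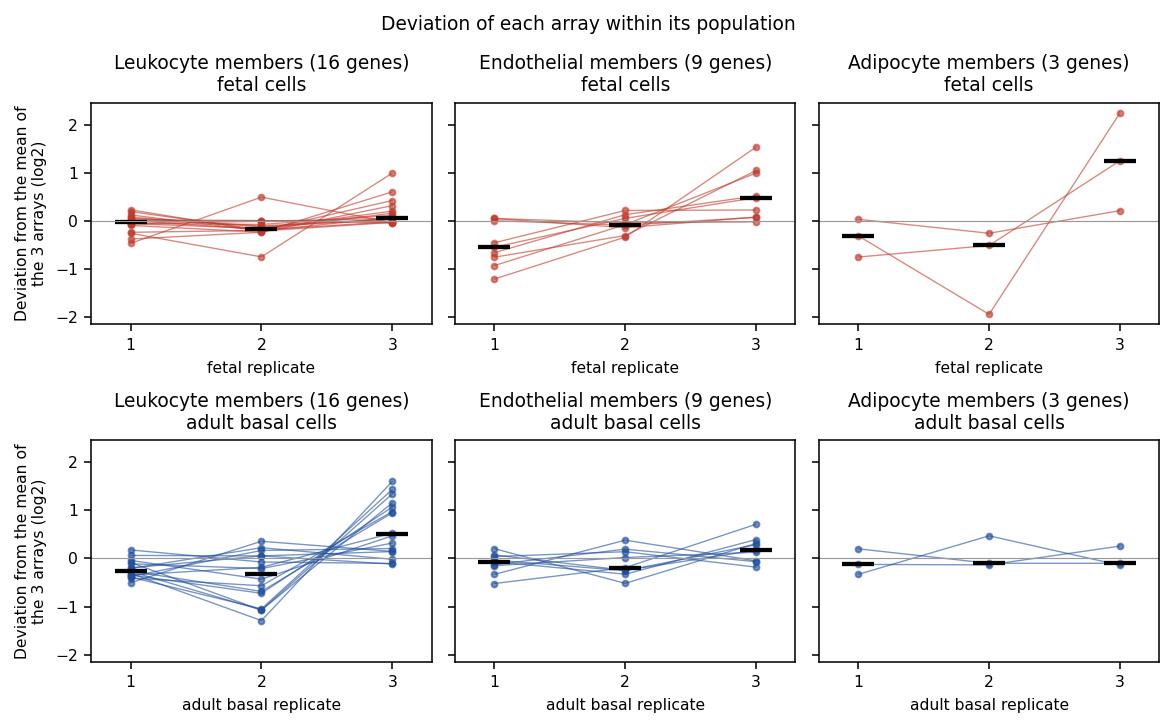
Deviation of each array from the mean of the 3 arrays of its population (log2), for the leukocyte, endothelial and adipocyte markers in fetal (top) and adult basal cells (bottom), with thin lines joining the values of 1 gene, which imply no order, and a black bar for the median. Adult basal replicate 3 was highest for 12 of 16 leukocyte markers and fetal replicate 3 for 8 of 9 endothelial and all 3 adipocyte markers. For the adipocyte markers adult basal replicate 3 was highest in 1 of 3.

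Summed over the brightest probes of a lineage, on the linear normalized scale, the leukocyte signal was 22100, 17700 and 20200 in fetal and 29800, 31600 and 44200 in adult basal cells, with Csf1r the brightest probe. The endothelial sum was 13000, 11600 and 13500 against 14100, 15100 and 12800. These endothelial sums overlapped, and the Kdr probe was the brightest. The pericyte sum was 43600, 40900 and 41000 against 79400, 85800 and 82900, with the Mcam probe the brightest. The fibroblast sum was 3330, 3200 and 3760 against 2830, 2540 and 2570, in which Fbln1 was the brightest probe, while the other 3 fibroblast markers were higher on every adult array. The adipocyte sum was 906, 842 and 2250 in fetal and 1840, 1730 and 2100 in adult basal cells, with Fabp4 the brightest gene. A sum over probes is weighted towards its brightest probes and is no amount of RNA, and the sums of different lineages are not compared. The leukocyte sum did not follow Csf1r alone, which made up a mean of 46.5% of it in fetal and 28% in adult basal cells. H2-Ab1, at a mean of 8.92 in fetal and 13.01 in adult basal cells, also enters this sum.

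Glial and erythroid genes, which belong to none of the 37, were examined apart. Of 9 genes of Schwann cells and other glia, none was called. Sox10, the brightest, is a glial and melanocyte transcription factor that mammary cells also express, and it was at 13.46, 13.55 and 13.83 in fetal and 13.76, 13.18 and 13.39 in adult basal cells (log2 fold change 0.17, SE 0.18). The myelin gene Mbp (-0.01, SE 0.11) did not pass the limits, and Cdh19 was well above background on none of the arrays. By the Benjamini-Hochberg adjustment, S100b and Fabp7 were higher in fetal cells (15.8% of all genes), and both were tested through the fetal signal alone, which fixed the direction. Fabp7, a fatty acid-binding protein known from radial glia, was at 7.90, 8.50 and 8.30 in fetal cells while no adult array was well above background, so that it differed by at least 21.3-fold (Holm-adjusted p = 0.11). S100b, a calcium-binding protein of glia, was at 6.69, 6.75 and 7.42 against 3.76, 2.24 and 4.07, with 1 adult array well above background (log2 fold change 3.60, SE 0.47). The median of the 6 glial genes that passed the filter in both populations was -0.23. Gfap, an intermediate filament of astrocytes (-0.63, SE 0.13), and Prx, the periaxin of myelinating Schwann cells (-0.52, SE 0.14), were higher on every adult array, by less than 2-fold. A second Gfap probe, too dim to be tested, went the other way, at 4.87, 4.88 and 4.82 in fetal and 4.05, 4.82 and 3.41 in adult basal cells. S100b, Fabp7, Gfap and Cdh19 were named after their values were seen.

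Erythroid transcripts come from the lineage that Ter119 excludes. Of 11 with a probe, 6 were tested and none was called. By the Benjamini-Hochberg limits 2 adult globin genes were higher in fetal cells (15.8% of all genes), the population through which alone they passed the filter. Hba-a2, the brightest, was at 11.38, 12.04 and 12.41 in fetal and 11.21, 11.31 and 10.94 in adult basal cells (log2 fold change 0.79, SE 0.26). Hbb-bt was at 6.33, 9.28 and 9.29 in fetal cells and well above background on no adult array, a difference of at least 21.2-fold (Benjamini-Hochberg-adjusted p = 9.6e-04), or 42-fold without fetal replicate 1. Fetal replicate 1 was the lowest fetal array for both genes. Hbb-b2 differed by at least 4.22-fold in the same direction, or 7.39-fold without that array. Hbb-bt and Hbb-b2 were named after their values were seen. Globin mRNA is known to be released from broken red cells, and its source here was not tested.

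**Figure D4:**
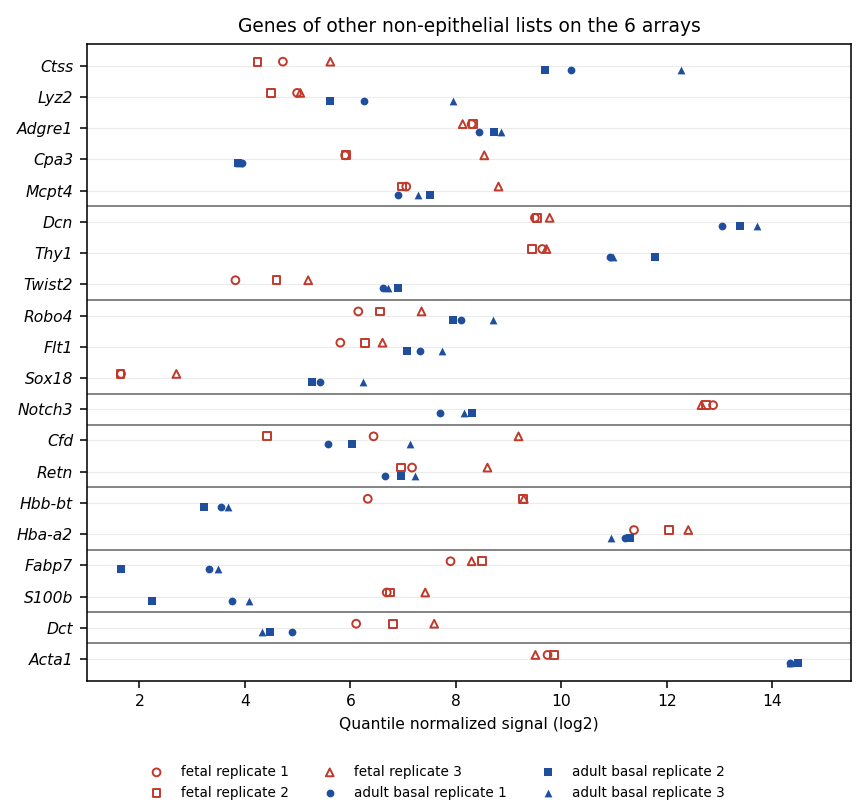
Quantile normalized log2 signal of genes from the further lists on each array, symbols as for the markers, with lines between the lists (from the top, myeloid and mast, fibroblast, endothelial, pericyte, adipocyte, erythroid, glial, melanocyte and skeletal muscle genes). Genes such as Ctss, Dcn, Robo4 and Acta1 lie higher on all adult arrays, and Notch3, Hbb-bt, Fabp7 and Dct higher on all fetal arrays.

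The 8 epithelial genes were examined for reference, and all were well above background on all 6 arrays. Epcam was at 12.95, 13.08 and 12.88 in fetal and 11.31, 11.03 and 10.94 in adult basal cells (log2 fold change 1.88, SE 0.13, Holm-adjusted p = 0.026). Krt5, the basal keratin, had a log2 fold change of -3.90 (SE 0.20, Holm-adjusted p = 0.0039), so that 1 gene was called in each direction. Trp63, a transcription factor of basal cells, gave -0.08 (SE 0.10) on its brighter probe and -3.06 (SE 0.10, Holm-adjusted p = 1.9e-04) on the other. Their median was 0.22.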

How the data were processed

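One-color arrays were hybridized with RNA of the 6 sorted samples, 1 array for each, and groups and replicate numbers were taken from the labels. The authors read linear spot intensities from the scans in Agilent's Feature Extraction (11.0.1.1), which subtracted background within each array, and deposited these intensities, without normalization between arrays, together with spot flags and local background. They also deposited log2 values after quantile normalization in GeneSpring, used here as an alternative. Every column of those values was closest to its own array's scanner signal (r of deviations from the probe means 0.998 to 0.999, against at most 0.729 for any other array). The labels name a low-input Quick Amp labelling kit, whereas the methods name a whole-transcript kit.

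Control spots and outlier spots (104 to 326 of 59305 on an array) were left out, the mean of each probe's spots was taken, and quantile normalization was applied on the log2 scale. Accessions without version numbers matched a RefSeq gene table (GRCm38.p6) for 27235 of 55681 probes (48.9%) and 20660 genes. No probe coordinates are given, since the array design is on mm9. Probes were removed where the log2 of the mean linear signal lay below 5.95, a boundary set above the lowest of 3 k-means clusters, in both populations, which left 20448 probes and 15725 genes. Differences were fitted with limma 3.58.1 in R 4.3.3, after the study's methods. The script was tested on simulated data. Promoters were read in Python 3.11.15 and plots drawn with matplotlib 3.10.9. The arrays lay on 2 slides, each with both populations. Slide 1 held fetal replicate 1 and adult basal replicates 1 and 3, and slide 2 held fetal replicates 2 and 3 and adult basal replicate 2. Each difference within a slide therefore rests on 1 array of 1 of the populations.

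For 1 gene and 3 arrays in each population, the smallest two-sided p of an exact permutation test is 0.1, so the p values depend on the variance that limma shares across probes. The number of arrays limits the precision. The markers, the further lists (glial, erythroid, myeloid and mast, lymphoid, fibroblast, lymphatic and other endothelial, pericyte, adipocyte, melanocyte, skeletal muscle, epithelial and gate antigen genes) and the alternatives were chosen with earlier results of these data known. Named with every array's value were the gate antigens among the markers (Ptprc and Pecam1), the called markers, the brightest of each lineage, and markers well above background on all arrays of 1 population and none of the other. Up to 4 genes of each further list were also named (those called, then the brightest). Other names are marked in the text, and some genes of the further lists are counted but not reported here by name. The alternatives were other normalizations, background corrections, filters, variance models, adjustments, probes and offsets, arrays left out, and slide or replicate number as a block.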

Additional observations from a re-analysis of the deposited data

How the results depend on the processing

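The count of markers called higher in adult basal cells, 2, was 2 or 3 under the 75th percentile normalization, the deposited log2 values, the normexp correction, a filter by the scanner's detection flag, all probes, a variance trend, an offset of 16, the slide block and averaged probes. It was 1 without a low-signal filter, and 16 with Benjamini-Hochberg adjustment, which is less strict. Leaving out each replicate in turn gave 1 to 4. The count called higher in fetal cells, 0, was 1 with Benjamini-Hochberg adjustment (Fbln1) and 0 to 0 with each replicate left out. Of the 20448 probes tested, 2270 were called, against 1182 without the filter, 6133 with Benjamini-Hochberg adjustment, 1302 with the replicate block, 948 to 1949 with each replicate left out and 471 without replicate 3 of both populations, the alternative chosen after seeing the data. The cause of the other changes was not tested. H2-Ab1 was called under 15 of 19 alternatives and Pdgfrb under all 19. Signs turned only for flat genes, namely Plin1 (0.03 with normexp, and -0.19 to 0.05 with each replicate left out), Csf1r (0.02 without replicate 3 of both, and -0.18 to 0.04), Cd3e (-0.12 to 0.05) and Kdr (-0.14 to 0.03). Samples of the same replicate number did not deviate together (r -0.03, 0.09 and 0.05), so the numbers were not taken as pairs. With the replicate block 3 markers were called, Cd52 (adjusted p = 0.0042) being added. No scaling moved the median of all tested probes by as much as 0.1 (range -0.061 to -0.019). Probes well above background on no array of a population give bounds only, and dim genes such as Emcn, Tek, Tie1 and Dpt had no test under some or all settings.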

Other observations

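Mast cell, melanocyte and skeletal muscle genes were not part of the 37 markers. Cpa3, which encodes carboxypeptidase A of mast cells, was at 5.90, 5.92 and 8.54 in fetal and 3.95, 3.87 and 3.88 in adult basal cells, with 1 adult array well above background (log2 fold change 2.89, SE 0.66, Benjamini-Hochberg-adjusted p = 0.0067). Cpa3, like Dct of the melanocyte genes, passed the low-signal filter through the fetal signal alone. Fetal replicate 3 was the highest fetal array, as it was for the mast cell proteases Mcpt4 (7.06, 6.98 and 8.81 in fetal against 6.91, 7.51 and 7.28 in adult basal cells) and Cma1 (4.71, 4.94 and 6.36 against 4.12, 4.81 and 4.34). Neither of these separated the populations.

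Of 5 melanocyte genes 4 were tested and none was called. Dct, the dopachrome tautomerase of pigment synthesis, was higher in fetal cells by the Benjamini-Hochberg adjustment (15.8% of all genes). It was at 6.11, 6.81 and 7.59 in fetal and 4.90, 4.47 and 4.33 in adult basal cells (log2 fold change 2.27, SE 0.35), and its second probe differed by at least 3.33-fold in the same direction. Tyr, the brightest melanocyte gene, gave -0.15 (SE 0.13). Of 5 skeletal muscle genes 3 were tested and 1 was called, Acta1, which encodes skeletal alpha-actin. Acta1 was at 9.74, 9.87 and 9.51 in fetal and 14.33, 14.49 and 14.33 in adult basal cells (log2 fold change -4.68, SE 0.12, Holm-adjusted p = 3.4e-05). The muscle regulators Myod1 (-0.07, SE 0.10) and Myog (-0.17, SE 0.11) did not differ by 2-fold, and neither was past the limits. Cpa3, Mcpt4, Cma1 and Dct were named after their values were seen.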
